A study of Mus musculus with 6 samples.

Results

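The mitochondrial carriers of solute carrier family 25 (SLC25) were examined in induced brown adipocytes, cells of the heat-producing fat type grown in culture. The members were taken by name: every row of the deposited count table whose symbol is Slc25a followed by a number, 47 of 46095 rows. The study sequenced RNA from 3 control libraries and 3 U-IRX3ov libraries, all on a C57BL/6 background. The name U-IRX3ov stands for overexpression of IRX3, a homeobox transcription factor, and these libraries carry KI in their titles. Which construct and promoter were used, and in which cells they act, is not given in the sources used. Cells of both genotypes came from the stromal vascular fraction of brown adipose tissue, the non-adipocyte cells of a digested fat pad, taken from mice 5 weeks old. Both were induced for 8 days, first for 2 days with IBMX (0.5 mM), 1 µM each of dexamethasone, rosiglitazone and triiodothyronine, and insulin at 5 µg/mL, and then for 6 days without IBMX and dexamethasone. Nothing in the labels says whether libraries of a group came from separate animals or cultures, so p-values measure only the spread between these libraries, which may be technical.

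Most SLC25 proteins sit in the inner mitochondrial membrane, which is otherwise closed to most metabolites, and exchange or import a narrow set of substrates each. A few lie in the outer membrane or in peroxisomes. They bring in phosphate, ADP, acylcarnitines, amino acids, cofactors and iron, and let out ATP and citrate. Brown adipocytes depend on them to feed fuel to the respiratory chain, and UCP1, the uncoupling protein that turns the proton gradient into heat, is itself a member of the family under another name.

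Library totals ran from 20094799 to 26755870 counts, of which the 47 carriers took 0.351% to 0.367% in control and 0.419% in each U-IRX3ov library. The brown adipocyte markers Ucp1 and Cidea were detected in every library, at 19.7 and 10.6 CPM on average in control (CPM are read counts scaled to a common library total, here with TMM factors). All 8 brown adipocyte markers, these 2 included, rose (median log2 fold change 1.48), from a summed 237.5 to 244 CPM in control to 687 to 786 CPM. The row of Irx3 itself need not count reads of the construct. It had 131, 142 and 138 raw counts in control and 163, 123 and 114 in U-IRX3ov libraries. U-IRX3ov libraries 2 and 3 held fewer counts in total (20094799 and 20217212, against 25371093 to 26573164 in control). Scaled as CPM, Irx3 was higher in every U-IRX3ov library than in any control library. It was not called (log2 fold change 0.27 ± 0.13, edgeR adjusted p = 0.112). Of 8 adipocyte markers 7 rose and 0 fell, with summed levels of 26120 to 26930 CPM in control and 33260 to 34660 CPM in U-IRX3ov. All 7 tested preadipocyte and fibroblast markers of 8 fell (1477 to 1528 CPM summed in control, 927 to 999 CPM in U-IRX3ov), as did all 7 tested leukocyte markers of 8 (404 to 493 CPM and 129 to 196 CPM). Endothelial markers rose in 4 of 6 (19.2 to 22.8 CPM and 38.6 to 44.0 CPM), and of 6 markers of pericytes and smooth muscle 5 fell and 1 rose (4547 to 4785 CPM and 2810 to 3121 CPM). Skeletal muscle markers were low (19.0 to 21.8 CPM and 14.1 to 17.7 CPM), and nearly all of that sum was Acta1, which fell (-0.45 ± 0.09). Mb, the myoglobin gene, had 0 to 4 counts per control library and 11 to 20 counts per U-IRX3ov library. It passed the filter on low counts only through the U-IRX3ov libraries, so its call is not used here. Of the 4 muscle markers not tested, Myog had 0 to 4 counts in control and 7 to 9 in U-IRX3ov libraries, Myod1 had 0 to 6 counts in any library, and Ckm and Myh4 had 0 counts in control and at most 2 in U-IRX3ov. Beside these marker lists, 20.2% of all genes tested rose and 21.1% fell, by the calls defined below. In bulk RNA, a change in the number of cells of a type and a change in RNA per cell cannot be told apart. The part of these cell type differences in the carrier results below was not tested.

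Of the 47 carriers 39 passed the filter on low counts, and 19 of these rose while 3 fell in U-IRX3ov cells. A call here is an edgeR quasi-likelihood adjusted p under 0.05, with Benjamini-Hochberg adjustment over all 14757 genes tested. The 19 are 48.7% of the tested carriers, where 20.2% of all genes tested rose. The 3 are 7.69%, where 21.1% of all genes tested fell. The median log2 fold change was 0.17 over the tested carriers and close to 0 (-0.005) over all genes tested. Most rises were small: 4 of the 19 exceeded 1.5-fold (Slc25a34, Slc25a23 and Slc25a42 among them), and none of the 3 falls did. The CPM ranges of the groups did not overlap for 22 tested carriers that were higher (56.4%, against 24.9% of all genes tested) and for 3 that were lower (7.69%, against 25.9%). Of the 15 tested carriers with a level of at least 10 CPM per kilobase of exon, 13 rose, 1 fell and 1 was not called. Of the 24 below that level 6 rose, 2 fell and 16 were not called, and counting error is larger there. The shares of 20.2% and 21.1% cover genes of any level. Shares over all genes at these levels were not taken, so the counts by level have no background of their own.

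**Figure D1:**
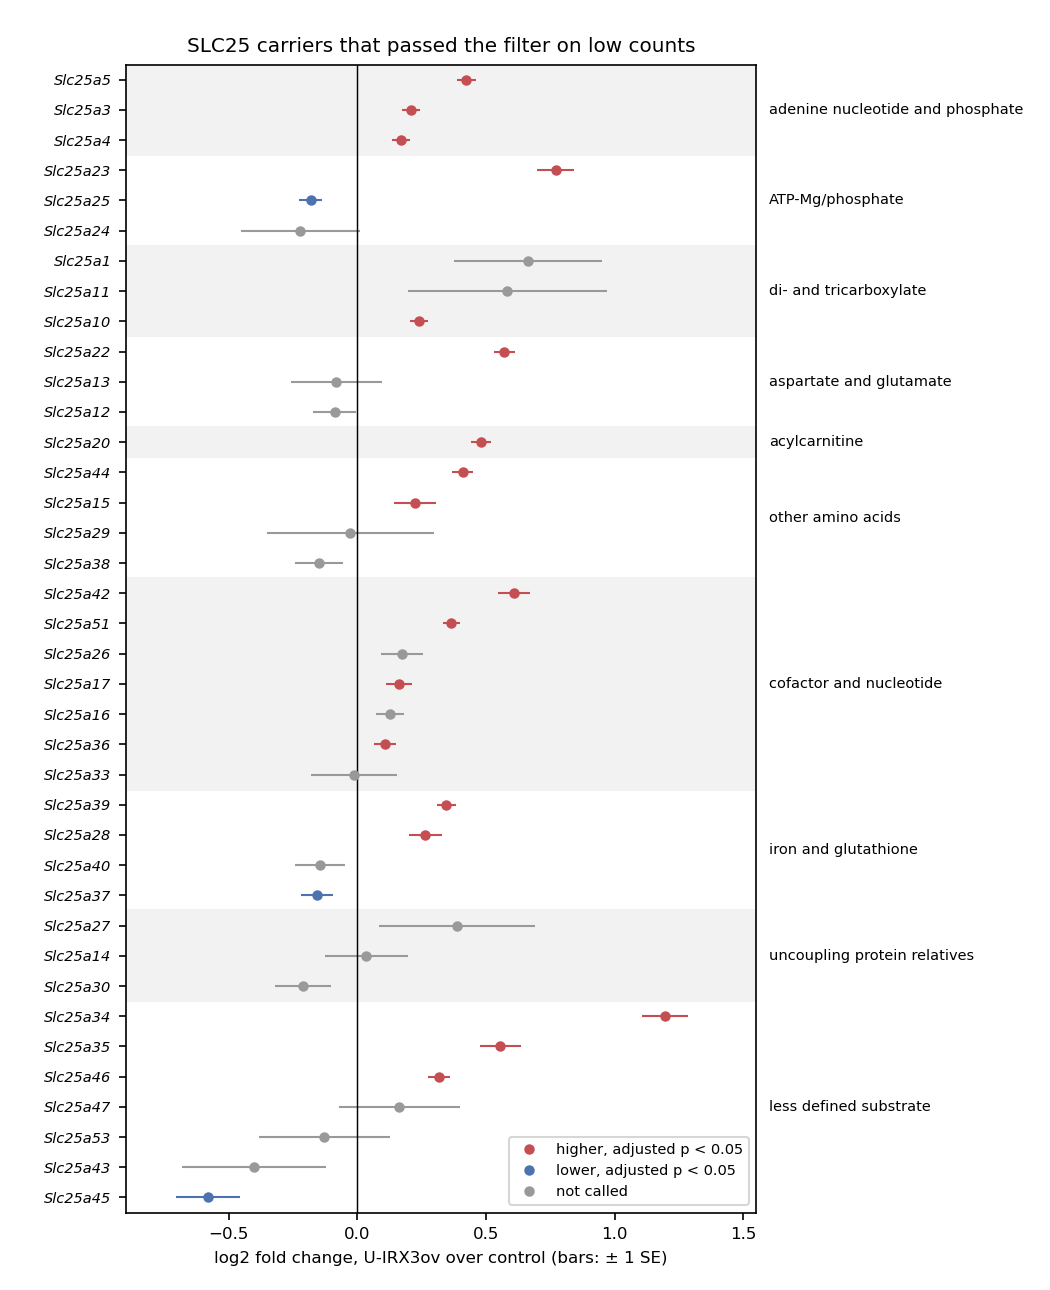
Log2 fold change of U-IRX3ov over control for 38 of the SLC25 carriers that passed the filter on low counts, by substrate group; points are estimates and bars are 1 standard error. The 18 red points rose, the 3 blue points fell, and Slc25a34 lies farthest to the right at 1.20.

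Among the carriers of energy transfer, the ADP/ATP carriers Slc25a4 and Slc25a5, which export ATP from the matrix in exchange for ADP, and the phosphate carrier Slc25a3 all rose. Slc25a5 had 551, 541 and 594 CPM in control libraries 1, 2 and 3 and 745, 746 and 771 CPM in U-IRX3ov libraries 1, 2 and 3. The groups did not overlap, and the log2 fold change was 0.42 ± 0.04 (SE; edgeR adjusted p = 2.79e-10). Slc25a4 had 292, 287 and 305 CPM in control and 331, 329 and 335 CPM in U-IRX3ov libraries, a log2 fold change of 0.17 ± 0.04 (edgeR adjusted p = 0.000305). Slc25a3 had 421, 427 and 431 CPM in control and 486, 499 and 493 CPM in U-IRX3ov libraries, a log2 fold change of 0.21 ± 0.03 (edgeR adjusted p = 1.08e-05). Groups did not overlap for either gene, although the rise of Slc25a4 was only 1.13-fold. The fourth member of this group, the ADP/ATP carrier Slc25a31, known from male germ cells, was not tested, with 2 to 8 counts per library. Slc25a5 lies on chromosome X at 36795651 to 36798807 (mm10, plus strand). Of its annotated exon sequence, 19.8% of runs of 75 bases also occur in transcripts of other annotated genes, mainly the processed pseudogenes Gm5560 and Gm5529, so its counts depend on how such reads were counted.

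The ATP-Mg/phosphate carriers, mostly calcium-regulated proteins that change the matrix pool of adenine nucleotides, did not move one way. Slc25a23 had 20.2, 18.4 and 20.9 CPM in control and 31.0, 36.2 and 34.6 CPM in U-IRX3ov libraries, with no overlap. It rose 1.71-fold (log2 fold change 0.77 ± 0.07, edgeR adjusted p = 9.78e-10). Slc25a25 had 95.1, 104 and 106 CPM in control and 87.3, 93.7 and 87.3 CPM in U-IRX3ov libraries, lower in every U-IRX3ov library by a small margin. It fell by 0.18 on the log2 scale (± 0.05, edgeR adjusted p = 0.00203). Slc25a24 had 5.08, 4.20 and 4.68 CPM in control and 3.499, 5.95 and 2.58 CPM in U-IRX3ov libraries. It was not called (-0.22 ± 0.23, edgeR adjusted p = 0.484), but without U-IRX3ov library 2, the highest of the 6, its log2 fold change was -0.60 (edgeR adjusted p = 0.0165), and without U-IRX3ov library 3, the lowest, it was -0.001. Slc25a41 and Slc25a54 had 0 counts in every library. As an approximate upper limit for an observed 0, 3 counts were taken, which correspond to 0.1095 to 0.1549 CPM.

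The acylcarnitine carrier Slc25a20, which brings fatty acids bound to carnitine into the matrix for oxidation, had 228, 226 and 246 CPM in control and 328, 321 and 326 CPM in U-IRX3ov libraries. The groups did not overlap, and it rose 1.40-fold (log2 fold change 0.48 ± 0.04, edgeR adjusted p = 3.17e-11). On either side of this step, the inner membrane enzyme Cpt2 rose (0.53 ± 0.04), the carnitine acetyltransferase Crat rose (0.61 ± 0.04) and the outer membrane enzyme Cpt1a fell (-0.19 ± 0.05), although its CPM ranges overlapped. The muscle-type Cpt1b rose (0.95 ± 0.26) from a mean of 1.32 CPM in control.

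Among carriers of tricarboxylic acid cycle intermediates, the dicarboxylate carrier Slc25a10, which exchanges malate and succinate for phosphate, had 260, 245 and 257 CPM in control and 302, 303 and 293 CPM in U-IRX3ov libraries. It rose by 0.24 ± 0.04 on the log2 scale (edgeR adjusted p = 4.61e-06), with no overlap between groups. The antisense gene Gm11788 shares 6.6% of its exon bases. The citrate carrier Slc25a1, which exports citrate for fatty acid synthesis, had only 32, 30 and 23 counts in control and 39, 35 and 34 counts in U-IRX3ov libraries. In CPM this was 1.17, 1.15 and 0.854 against 1.5, 1.80 and 1.76, without overlap. Its log2 fold change of 0.66 ± 0.29 was not called (edgeR adjusted p = 0.0657), and it was called when genes needed at least 1 CPM in 3 libraries (adjusted p = 0.0466). The oxoglutarate carrier Slc25a11, a part of the malate-aspartate shuttle, had 13, 15 and 13 counts in control and 23, 13 and 14 counts in U-IRX3ov libraries (0.58 ± 0.39, edgeR adjusted p = 0.243). Its CPM values did not overlap between groups either, and as few counts carry a large counting error, neither gene gives a firm direction. Slc25a21, which carries oxodicarboxylates such as 2-oxoadipate, was not tested, with 1 to 10 counts per library. Beside these carriers, the enzymes at both ends of citrate export rose, with citrate synthase Cs at 0.61 ± 0.03 and the ATP citrate lyase Acly at 0.70 ± 0.03.

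The low counts of Slc25a1 and Slc25a11 stood beside low counts of their neighbours. Slc25a1 lies on chromosome 16 at 17925223 to 17928219 (mm10, minus strand), and 21 of the 31 coding genes within 500 kb of its middle averaged under 1 CPM (scaled to library totals here). Slc25a11 lies on chromosome 11 at 70644196 to 70647479 (mm10, minus strand), and the same held for 31 of 42 coding neighbours. These are 67.7% and 73.8%, against 43.3% of all coding genes in the table and 19.5% (8 of 41) around Slc25a10. Shares of 66.7% or more also stood around 4 other carriers: Slc25a53 (73.3%, 11 of 15), Slc25a32 (66.7%, 4 of 6), Slc25a48 (66.7%, 6 of 9) and Slc25a13, which has 1 coding neighbour, under 1 CPM. The low neighbours included genes that every cell uses, chosen here after their values were seen. Near Slc25a11 the proteasome subunit gene Psmb6 had 10 to 24 counts per library, and Pfn1, the actin-binding protein profilin, at 8.5 kb, was just above that limit with 40 to 67 counts (2.22 CPM). Ranbp1, a partner of the Ran transport cycle, had 1 to 6 counts near Slc25a1. Every coding neighbour of Slc25a1 from Klhl22 at -150.2 kb to Arvcf at 450.9 kb averaged under 1 CPM, except Dgcr2 (2.44 CPM). Med15, at -239.6 kb (that is, at lower coordinates), averaged 67.6 CPM. Around Slc25a11, none from Clec10a at -477.1 kb to Inca1 at 48.5 kb averaged above Med11 (3.03 CPM). Kif1c at 70.3 kb averaged 86.5 CPM. Outside these stretches low and well-counted genes were interspersed. Zfp3 (0.021 CPM, 122.8 kb) stood between Kif1c and Rabep1 (13.4 CPM, 248.1 kb). Ccdc74a (0.197 CPM, -278.1 kb) stood between Med15 and Smpd4 (40.1 CPM, -294.6 kb). Of runs of 75 exonic bases, 0% in Slc25a1 and 5.14% in Slc25a11 occur in annotated transcripts of other genes. Whether the table holds all reads of these 2 loci was not tested.

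**Figure D2:**
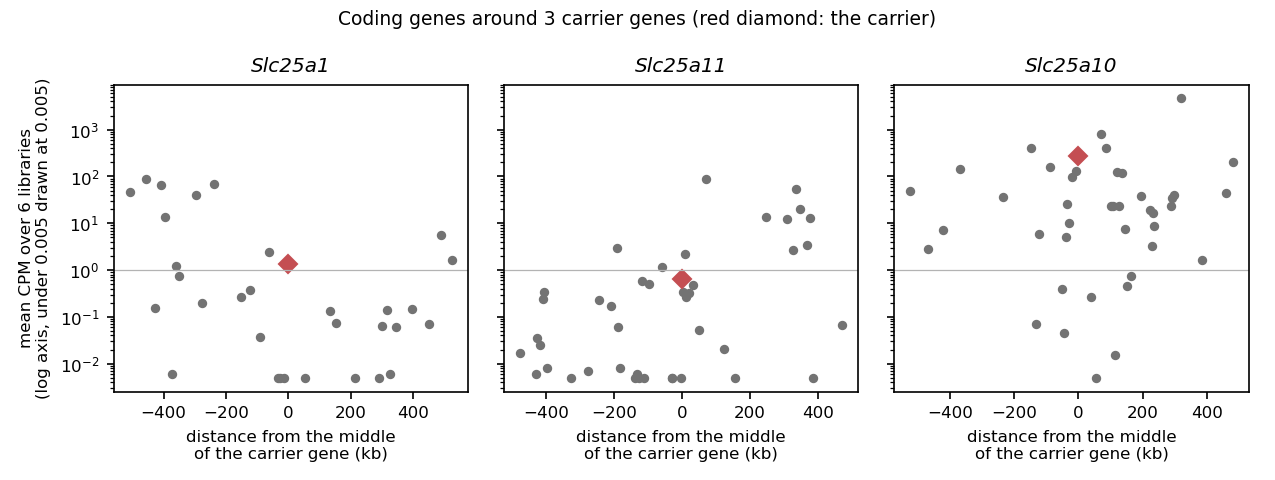
Mean CPM over the 6 libraries (log axis) of coding genes within 500 kb of Slc25a1, Slc25a11 and Slc25a10, by distance from the middle of the carrier gene in kb. The red diamond is the carrier, drawn as TMM-scaled CPM, while its neighbours are scaled to library totals. Most points around Slc25a1 and Slc25a11 lie under the line at 1 CPM, with 21 of 31 and 31 of 42 neighbours there, against 8 of 41 around Slc25a10.

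The glutamate carrier Slc25a22, which imports glutamate with a proton, had 106, 106 and 114 CPM in control and 161, 161 and 161 CPM in U-IRX3ov libraries. It rose 1.49-fold without overlap (log2 fold change 0.57 ± 0.04, edgeR adjusted p = 3.23e-12). The aspartate/glutamate exchangers of the malate-aspartate shuttle were not called in either direction. Slc25a12 had 16.8, 16.4 and 15.5 CPM in control and 15.8, 14.8 and 15.1 CPM in U-IRX3ov libraries (-0.09 ± 0.08, edgeR adjusted p = 0.425). Slc25a13 had 3.54, 3.40 and 4.23 CPM against 4.04, 3.54 and 2.89 CPM (-0.08 ± 0.18, edgeR adjusted p = 0.740). Both overlapped between groups. The soluble enzymes of that shuttle rose: Mdh1 by 0.52 ± 0.03, Mdh2 by 0.55 ± 0.04, Got1 by 0.43 ± 0.06 and Got2 by 0.19 ± 0.04. Slc25a18, the other glutamate carrier, had 3 counts in 1 control library and 0 in the other 5 libraries. Glutamate dehydrogenase Glud1 was not called (0.05 ± 0.04).

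Slc25a44, which carries branched-chain amino acids into mitochondria and is known for that role in brown fat, had 176, 168 and 182 CPM in control and 238, 222 and 238 CPM in U-IRX3ov libraries. It rose 1.33-fold without overlap (log2 fold change 0.41 ± 0.04, edgeR adjusted p = 2.08e-09). The enzymes that act on these amino acids in the matrix rose by similar log2 values, with the transaminase Bcat2 at 0.41 ± 0.04 and the dehydrogenase subunits Bckdha at 0.58 ± 0.04 and Bckdhb at 0.47 ± 0.04. The ornithine carrier Slc25a15 rose by 0.22 ± 0.08 (edgeR adjusted p = 0.0280), a call that was lost with DESeq2 (0.0826) and in 4 of 6 fits without 1 library (without control library 1 or 2, or U-IRX3ov library 2 or 3; up to 0.123). The glycine carrier Slc25a38, needed for heme synthesis, had -0.15 ± 0.09 (-0.08 without control library 3) and the basic amino acid carrier Slc25a29 had -0.03 ± 0.33, neither called. Slc25a2, the second ornithine carrier, had 0 to 4 counts per library.

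Of 8 tested cofactor and nucleotide carriers 5 rose and 0 fell, where 20.2% of all genes tested rose and 21.1% fell. The coenzyme A carrier Slc25a42 had 30.6, 29.1 and 30.0 CPM in control and 43.7, 44.7 and 48.7 CPM in U-IRX3ov libraries, a rise of 0.61 ± 0.06 (edgeR adjusted p = 4.42e-09). The NAD carrier Slc25a51 had 418, 418 and 429 CPM in control and 535, 552 and 543 CPM in U-IRX3ov libraries, a rise of 0.37 ± 0.03 (edgeR adjusted p = 8.04e-10). Neither gene overlapped between groups. Smaller rises were called for the peroxisomal cofactor carrier Slc25a17 (0.16 ± 0.05, edgeR adjusted p = 0.0102) and the pyrimidine nucleotide carrier Slc25a36 (0.11 ± 0.04, edgeR adjusted p = 0.0443). Slc25a17 lost its call without control library 3 (0.0627) or U-IRX3ov library 1 (0.0922). Slc25a36 lost it under upper-quartile scaling (0.0824), no filter on low counts (0.0507), DESeq2 (0.0823), limma-voom (0.0599) and all single-library omissions except that of control library 2, with adjusted p up to 0.243 (without control library 3, where the log2 fold change was 0.07). Its runs of 75 exonic bases are shared with the pseudogene Gm13217 in 5.52%. Not called were Slc25a16 (0.13 ± 0.06, edgeR adjusted p = 0.0667; 0.18 with 0.0222 without U-IRX3ov library 2, 0.07 with 0.369 without U-IRX3ov library 3), the S-adenosylmethionine carrier Slc25a26 (0.17 ± 0.08) and the second pyrimidine nucleotide carrier Slc25a33 (-0.01 ± 0.17). Slc25a32, described as a carrier of folate and FAD, was not tested, with 1 to 7 counts per library.

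The iron carriers moved apart. Slc25a28 (mitoferrin 2) had 25.4, 27.4 and 26.5 CPM in control and 31.1, 31.2 and 32.9 CPM in U-IRX3ov libraries, a rise of 0.26 ± 0.06 (edgeR adjusted p = 0.00142). Slc25a37 (mitoferrin 1), the form known from developing red cells, had 30.2, 30.0 and 29.5 CPM in control and 26.96, 26.3 and 27.01 CPM in U-IRX3ov libraries, a fall of -0.16 ± 0.06 (edgeR adjusted p = 0.0451). Of the exonic runs of 75 bases in Slc25a37, 6.55% are shared with non-coding genes. Neither gene overlapped between groups, but the call of Slc25a37 was lost in 9 of 13 alternative fits (adjusted p from 0.0516 to 0.155 in these). Those were DESeq2 size factors (0.0516), no filter on low counts (0.103), DESeq2 (0.155), the replicate block (0.0575) and the fits without control library 1 or 2 or any 1 of the U-IRX3ov libraries. The glutathione carrier Slc25a39 had 193, 189 and 195 CPM in control and 250, 240 and 243 CPM in U-IRX3ov libraries, a rise of 0.35 ± 0.04 (edgeR adjusted p = 7.84e-09). Its relative Slc25a40 had -0.15 ± 0.10 and was not called (-0.08 without control library 1). Alas1, the first enzyme of heme synthesis, rose (0.57 ± 0.04), and Fech, which inserts the iron, rose by 0.19 ± 0.04.

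Among the tested Slc25a-named carriers Slc25a34, whose substrate is less defined, had the largest fold change. It had 9.68, 9.93 and 11.3 CPM in control and 22.4, 25.2 and 23.4 CPM in U-IRX3ov libraries. Every U-IRX3ov library held about the same level and lay far above control, a 2.29-fold rise (log2 fold change 1.20 ± 0.09, edgeR adjusted p = 7.96e-12). Slc25a34 lies on chromosome 4 at 141618824 to 141623821 (mm10, minus strand), and no other annotated gene shares its exons. Its closest relative Slc25a35 rose by 0.56 ± 0.08, but 31.3% of its exon bases are shared with the coding gene Rangrf on the other strand, and it is not known whether counting used the strand. The outer membrane protein Slc25a46, involved in mitochondrial shape, rose by 0.32 ± 0.04. Slc25a45 had 8.18, 10.5 and 10.9 CPM in control and 6.88, 6.67 and 6.15 CPM in U-IRX3ov libraries, and it was the largest of the 3 falls (-0.58 ± 0.13, edgeR adjusted p = 0.000422). Slc25a43, Slc25a47 and Slc25a53 were not called and had at most 66 counts in any library, and Slc25a48 had 1 count in 1 library. The uncoupling protein relatives Slc25a14 (0.04 ± 0.16), Slc25a27 (0.39 ± 0.30) and Slc25a30 (-0.21 ± 0.11) were not called either.

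Promoter sequence was available from RefSeq (GRCm38.p6, the assembly of mm10) for 36 of the 47 carriers, as 250 bases before and 50 after each annotated start. Both strands were searched for AAGGTCA, a motif of estrogen-related receptors, CCGGAAG, an ETS factor core, GCATGCGC, an NRF1 core, and CACGTG, the E-box; none of the 4 contains another. AAGGTCA stood in 1 of 14 carriers that rose and 0 of the 22 others with a promoter (5.38% of all genes in the RefSeq table), and that 1 was Slc25a34. CCGGAAG stood in 4 of 14 (Slc25a3, Slc25a4, Slc25a17 and Slc25a20) and 3 of 22, against 9.93% of all genes. GCATGCGC stood in 0 of 14 and 2 of 22 (3.05% of all genes), and CACGTG in 2 of 14 and 5 of 22 (8.09% of all genes). A match describes the letters in this window only. The promoters of the member with the largest rise and of 2 abundant members that rose are shown with the match in capitals. They are chr4:141623785-141624084 (minus strand), chr9:108661886-108662185 (plus strand) and chr8:46211013-46211312 (minus strand), written 5′ to 3′ along the gene. In Slc25a34 the capitals are AAGGTCA read on the other strand, -119 to -113 from the start of transcription, and in Slc25a20 and Slc25a4 they are CCGGAAG, beginning at -79 and -130. These positions count from the RefSeq starts. In GENCODE M21, Slc25a4 spans 46206797 to 46211284, so its match lies inside the gene as annotated there.
Slc25a34: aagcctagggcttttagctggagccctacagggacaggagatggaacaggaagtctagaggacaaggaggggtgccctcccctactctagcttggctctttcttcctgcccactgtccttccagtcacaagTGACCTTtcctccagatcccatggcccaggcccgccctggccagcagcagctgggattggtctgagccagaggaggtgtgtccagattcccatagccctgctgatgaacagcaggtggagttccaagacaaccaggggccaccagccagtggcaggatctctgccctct
Slc25a20: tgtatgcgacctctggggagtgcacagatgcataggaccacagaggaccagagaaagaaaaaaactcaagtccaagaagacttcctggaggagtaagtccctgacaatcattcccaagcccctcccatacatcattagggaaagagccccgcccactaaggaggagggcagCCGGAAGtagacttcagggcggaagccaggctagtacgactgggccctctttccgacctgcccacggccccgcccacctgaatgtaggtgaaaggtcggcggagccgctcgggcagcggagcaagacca
Slc25a4: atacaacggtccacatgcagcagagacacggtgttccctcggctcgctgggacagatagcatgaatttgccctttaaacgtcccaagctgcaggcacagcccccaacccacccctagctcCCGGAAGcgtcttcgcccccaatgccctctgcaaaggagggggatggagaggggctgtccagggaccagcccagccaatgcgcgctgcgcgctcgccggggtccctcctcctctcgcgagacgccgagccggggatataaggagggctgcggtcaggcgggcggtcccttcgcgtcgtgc

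Levels were compared between carriers as CPM per kilobase of annotated exon, which understates genes with long rarely used exons. In control cells the order began with Slc25a5 at 341 ± 17.3 (SD, n = 3), Slc25a4 at 125 ± 3.78, Slc25a3 at 76.8 ± 0.925, Slc25a51 at 76.5 ± 1.14, Slc25a10 at 73.4 ± 2.20 and Slc25a39 at 69.8 ± 1.07. Slc25a3 and Slc25a51 did not differ beyond their spread. In U-IRX3ov cells Slc25a51, at 98.6 ± 1.47, stood above Slc25a3 at 88.8 ± 1.19, Slc25a39 at 88.7 ± 1.68 and Slc25a10 at 86.7 ± 1.62, and these 3 overlapped within their SD. Slc25a5 stayed first at 458 ± 9.03 and Slc25a4 second at 141 ± 1.47. On the same scale Ucp1, the uncoupling protein, went from 12.1 in control, between Slc25a25 (12.9) and Slc25a16 (11.6), to 146 ± 14.7 in U-IRX3ov, below Slc25a5 and not apart from Slc25a4 beyond its spread.

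**Figure D3:**
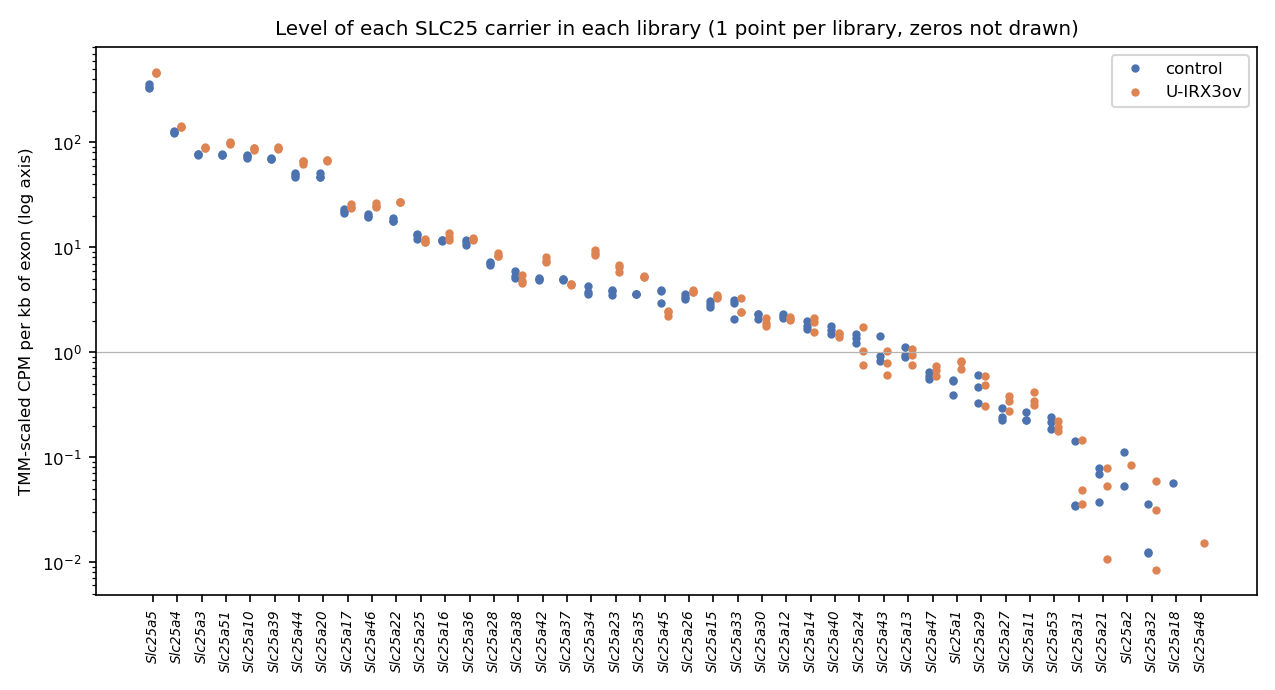
TMM-scaled CPM per kb of exon (log axis) of 44 SLC25 carriers with a count, 1 point per library, ordered by the control mean; blue is control and orange U-IRX3ov. Levels span from 341 for Slc25a5 to under 0.1 for the carriers at the right, and the groups separate mainly among the more abundant carriers at the left.

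The summed level of the 47 carriers was 3431, 3403 and 3539 CPM in control and 4312, 4325 and 4377 CPM in U-IRX3ov libraries. Groups did not overlap, and the log2 ratio of the means was 0.33 (exact permutation p = 0.1, two-sided, the smallest that 3 against 3 libraries can give). The 41 listed nuclear-encoded subunits of respiratory complexes and ATP synthase summed to 11760, 11660 and 12380 CPM in control and 17590, 17590 and 18180 CPM in U-IRX3ov libraries, a log2 ratio of 0.58. Of these subunits 35 rose and 0 fell (median log2 fold change 0.57), where 20.2% of all genes tested rose and 21.1% fell. The ratio of carrier to subunit counts needs no library scaling. Its log2 value was -1.78, -1.78 and -1.81 in control and -2.03, -2.02 and -2.05 in U-IRX3ov libraries. It was lower in all 3 U-IRX3ov libraries by 0.25 on average (-0.25, exact permutation p = 0.1, the smallest possible), so the carrier sum rose less than the subunit sum in these libraries. Without the 3 most abundant carriers, Slc25a5, Slc25a51 and Slc25a3, the difference was -0.26.

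**Figure D4:**
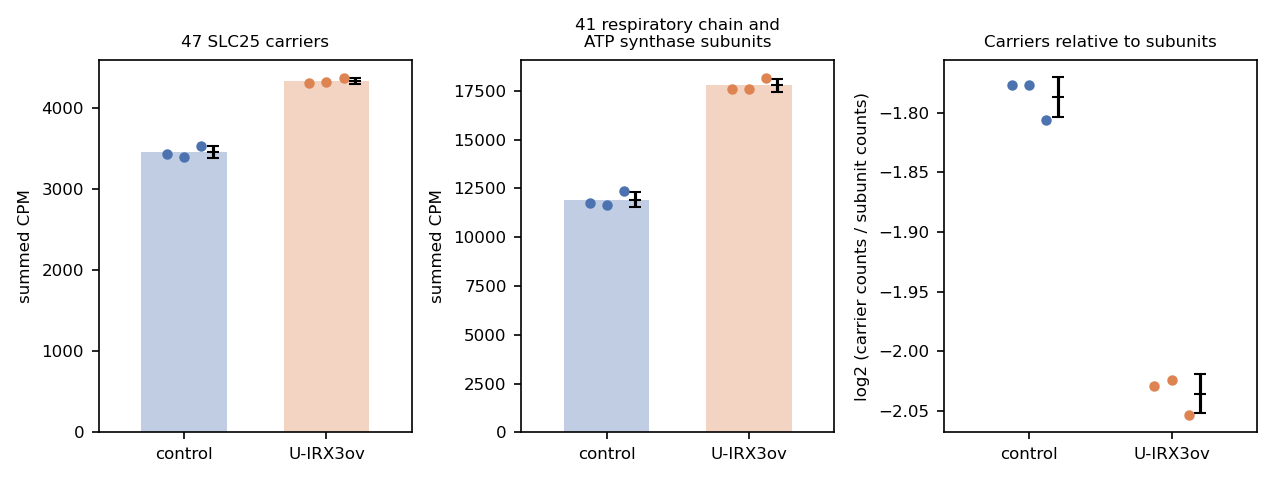
Summed CPM of the 47 carriers, summed CPM of 41 respiratory chain and ATP synthase subunits, and the log2 ratio of their counts, in each library; bars in the first 2 panels are means, points are libraries and error bars are 1 SD. Both sums were higher in the U-IRX3ov libraries, and the ratio was lower, near -2.03 against -1.79.

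Ratios within 10 pairs of related carriers, which also need no library scaling, separated the groups in 5 pairs. An exact permutation test of 3 against 3 libraries gives at least p = 0.1, and all 5 reached it (0.2 after Benjamini-Hochberg adjustment over the 10 pairs), so none could pass 0.05. The log2 ratio of Slc25a4 to Slc25a5 was -0.91, -0.91 and -0.96 in control and -1.17, -1.18 and -1.20 in U-IRX3ov libraries, a difference of -0.26. Thus Slc25a5 counts gained on Slc25a4 counts in every U-IRX3ov library. That of Slc25a28 to Slc25a37 was -0.25, -0.13 and -0.15 in control and 0.21, 0.25 and 0.28 in U-IRX3ov libraries: mitoferrin 1 had more counts in each control library and mitoferrin 2 in each U-IRX3ov library. The other separated pairs were Slc25a23 to Slc25a24 (difference 1.07), Slc25a34 to Slc25a35 (0.64) and Slc25a39 to Slc25a40 (0.49). The difference for Slc25a23 to Slc25a24 ran from 0.78 to 1.35 when 1 library was left out. For Slc25a12 to Slc25a13 the ratio was alike in size in both groups (2.13 ± 0.22 and 2.14 ± 0.22, SD, n = 3; exact permutation p = 1), and the remaining 4 pairs overlapped too.

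**Figure D5:**
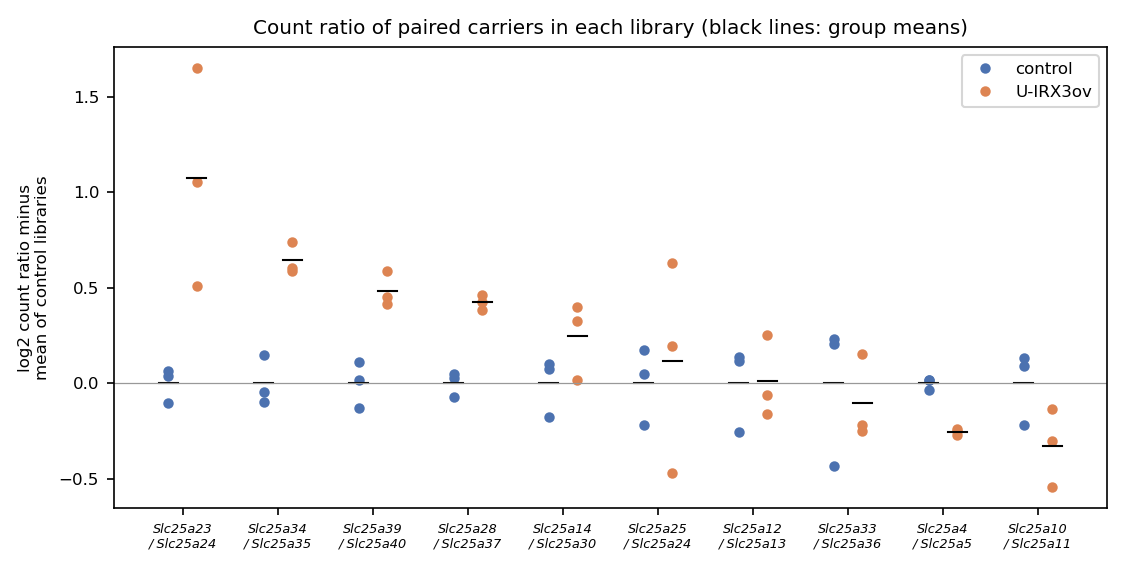
Log2 count ratio of 10 pairs of related carriers in each library, minus the mean of the control libraries; black lines are group means, blue is control and orange U-IRX3ov. The 4 pairs at the left are higher in every U-IRX3ov library (differences 1.07 to 0.42), Slc25a4 over Slc25a5 is lower in every one (-0.26), and the others overlap.

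Proteins of the family that carry other names rose in 4 of 5 cases. Ucp1, whose mean went from 19.7 ± 1.19 to 240 ± 24.1 CPM (SD, n = 3), rose far more than any carrier above (log2 fold change 3.60 ± 0.08, edgeR adjusted p = 1.18e-11). Ucp2 rose by 0.55 ± 0.06, Ucp3 by 1.32 ± 0.21 from 2.11 CPM, and Mtch2, an insertase of the outer membrane, by 0.35 ± 0.04, while its relative Mtch1 fell by 0.16 on the log2 scale (± 0.04, edgeR adjusted p = 0.00232). Of 15 other mitochondrial membrane transporters 13 rose and 1 fell (median 0.35). Among them the pyruvate carrier subunits Mpc1 (1.04 ± 0.08) and Mpc2 (0.43 ± 0.05), the outer membrane channel Vdac1 (0.35 ± 0.03) and the ATP-binding cassette transporters Abcb8 (0.75 ± 0.05) and Abcb6 (0.53 ± 0.05) rose, and the sideroflexin Sfxn3 fell (-0.58 ± 0.06). Of 22 enzymes that use the carried substrates 17 rose and 3 fell (median 0.45), Cpt1a and the ornithine aminotransferase Oat (-0.34 ± 0.04) among the latter. Beside these lists, 20.2% of all genes tested rose and 21.1% fell.

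Of the 47 carriers 7 had under 10 counts in every library: Slc25a2, Slc25a18, Slc25a31, Slc25a32, Slc25a41, Slc25a48 and Slc25a54. With Slc25a21 they make up the 8 carriers that were not tested, and nothing is said of their direction.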

How the data were processed

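RNA sequencing of 3 control and 3 U-IRX3ov libraries was analysed from 1 table of raw counts per gene symbol, deposited by the authors without normalization. Reads were aligned with HISAT2 2.0.4 to mm10, per the submitters' processing notes. Neither the counter, nor its annotation, strandedness or treatment of multiply matching reads, is given in the sources used here, so overlapping, antisense and near-identical genes are uncertain. Column names matched the library titles.

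The whole table of 46095 rows was fitted in edgeR 4.0.16 (R 4.3.3). After filterByExpr 14757 genes were tested, with TMM scaling, a robust quasi-likelihood F test for genotype with no other term, and p-values adjusted by Benjamini-Hochberg over these genes (threshold 0.05). The standard error is the log2 fold change divided by the square root of F. CPM values are TMM-scaled. Sums and pair ratios were tested by exact permutation over libraries. Exon lengths, overlaps and positions came from GENCODE M21 (GRCm38, the assembly of mm10), where all 47 carriers matched, and promoters and neighbours from RefSeq GRCm38.p6. Depth was 20094799 to 26755870 counts per library, and the biological coefficient of variation was 5.12%. Within groups, chi-square per degree of freedom between replicates was 3.02 to 5.20, more than counting noise. The fit was tested on simulated data.

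Alternatives were DESeq2 size factors, upper-quartile scaling, other filters, DESeq2 1.42.0, limma-voom (limma 3.58.1), the replicate number as a block and leaving out each library. Members, substrate groups and lists were chosen with earlier results of these data known. Values in every library are given for 16 carriers fixed by name and for up to 6 with the smallest p in each direction. Of other lists up to 4 members with the smallest p are named. Values in every library of Slc25a23 and Slc25a24, and other enzymes and transporters beside a carrier's step, were added after their values were seen. Results of 1 carrier and of a few listed enzymes are counted in the totals and are otherwise not reported here.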

Additional observations from a re-analysis of the deposited data

How the results depend on the processing

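Over 7 alternatives of scaling, filter, tool and design, 17 to 20 carriers rose and 2 to 3 fell, with a median log2 fold change of 0.158 to 0.180. Leaving out 1 library gave 17 to 18, 2 to 3 and 0.173 to 0.219. Of the 22 calls 18 held in all 13 fits; the other 4 were Slc25a15, Slc25a17, Slc25a36 and Slc25a37. Without 1 library the uncalled log2 fold changes crossed 0 for Slc25a13 (-0.21 to 0.033), Slc25a14 (-0.067 to 0.164), Slc25a29 (-0.24 to 0.22) and Slc25a33 (-0.17 to 0.10), as did the ratios Slc25a12 to Slc25a13 (-0.12 to 0.10), Slc25a33 to Slc25a36 (-0.322 to 0.009) and Slc25a25 to Slc25a24 (-0.14 to 0.41). Without crossing 0, single omissions moved other uncalled values by over 1.5 times: Slc25a38 (-0.23 to -0.08), Slc25a40 (-0.21 to -0.08), Slc25a43 (-0.62 to -0.14), Slc25a47 (0.09 to 0.24) and Slc25a53 (-0.22 to -0.04), beside Slc25a16 and Slc25a24 above. The values that crossed 0 have few counts or overlap between groups, and the cause was not tested. The log2 rise of the summed carriers was 0.231 to 0.332 over scalings and subsets, the lowest with library totals alone. The replicate number as a block gave 19 higher and 2 lower carriers, where the call of Slc25a37 alone was lost (adjusted p = 0.0575). Same-numbered libraries correlated by -0.001, 0.095 and 0.051 in their deviations from the group means, all under the limit of 0.1 taken for pairing. Control libraries 2 and 3 correlated best with their own number and control library 1 did not. These values do not settle whether the numbers pair the libraries. Of the 24 carriers under 10 CPM per kb 16 were not called; whether depth accounts for this was not tested.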

Other observations

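In the list of respiratory subunits, 2 genes were also low in the table. The complex III core subunit Uqcrc1 averaged 1.73 CPM in control against 368 CPM for its partner Uqcrc2. The ATP synthase gene Atp5g2 averaged 1.90 CPM in control, where the like-named Atp5g1 and Atp5g3 averaged 36.4 and 291 CPM. Uqcrc1 still rose (log2 fold change 1.20 ± 0.24, edgeR adjusted p = 0.000163). These were named after their values were seen, and whether reads of these genes are missing from the table was not tested.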
